A study of Homo sapiens with 36 samples.

Results

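The E2F and RB family transcription regulators were followed as messenger RNA levels of 10 genes, E2F1, E2F2, E2F3, E2F4, E2F5, E2F7, E2F8, RB1, RBL1 and RBL2. The genes were chosen by their symbols, with earlier results of these data known. Each symbol had a row in the table of 26475 gene symbols, and all 10 genes passed the filter on low counts in every fit. Poly-A RNA was sequenced on an Illumina HiSeq instrument from 3 human cancer cell lines grown in serum-containing medium: MDA-MB-468 (breast), PANC-1 (pancreas) and WiDr (colon). There were 4 experiments of 9 libraries. In each line, cells carrying lentiviral pGIPZ hairpin 1 (3 libraries) or hairpin 2 (3 libraries) were set against cells carrying the non-silencing pGIPZ hairpin (3 libraries). In WiDr, cells given guide 1 (3 libraries) or guide 2 (3 libraries) were set against cells given the non-targeting guide NT-1 (3 libraries). Both constructs of an experiment therefore share the same 3 control libraries, and every control also carries a vector. The design text calls the 3 libraries of a group biological replicates, and the labels do not say whether a line was a pool or 1 clone. For PANC-1, hairpin 2 is taken as a label only, and its 3 libraries are named as the libraries labelled hairpin 2. Their titles name hairpin 2 in the same form as those of the other lines, and the label was not checked here. In the guide experiment the titles gave the groups, and 4 of the 6 libraries with a targeting guide carry the other guide's name in their genotype field.

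E2F proteins bind DNA at the promoters of genes for DNA replication and cell division, most of them as dimers with a DP protein. E2F1, E2F2 and E2F3 mainly activate transcription in late G1 and S phase, E2F4 and E2F5 mainly repress as partners of the pocket proteins, and E2F7 and E2F8 bind without a DP partner and repress. The pocket proteins RB1, RBL1 (p107) and RBL2 (p130) hold E2F proteins inactive until cyclin-dependent kinases phosphorylate them, and RBL1 and RBL2 join E2F4 or E2F5 and the MuvB core in the DREAM complex, which represses cell cycle genes in resting cells. Several of these genes carry E2F sites in their own promoters, and MDA-MB-468 is known as an RB1-deficient line.

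Promoters of the members whose 150 bases before a RefSeq start hold an E2F-type motif are shown. With WiDr guide 1, E2F1, E2F2 and RBL1 were lower and E2F3 did not pass. E2F7, whose window held no match, and E2F8, which had no window, were lower there too. Whether the motifs bear on these changes was not tested. The sequences are from RefSeq on GRCh38.p14 and run 5′ to 3′ on the gene's strand, with the last base next to the start. Capitals mark matches to TTTCCCGC, TTTCGCGC, TTTGCCGC or TTTGGCGC, searched on both strands, so that GCGGCAAA and GCGGGAAA are TTTGCCGC and TTTCCCGC on the other strand. The windows are chr20:33686386-33686535 on the minus strand for E2F1, chr1:23531234-23531383 on the minus strand for E2F2, chr6:20401729-20401878 on the plus strand for E2F3 and chr20:37095998-37096147 on the minus strand for RBL1.
E2F1: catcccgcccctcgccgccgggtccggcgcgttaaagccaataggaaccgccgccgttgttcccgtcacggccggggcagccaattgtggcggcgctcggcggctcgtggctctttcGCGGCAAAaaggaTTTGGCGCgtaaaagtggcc
E2F2: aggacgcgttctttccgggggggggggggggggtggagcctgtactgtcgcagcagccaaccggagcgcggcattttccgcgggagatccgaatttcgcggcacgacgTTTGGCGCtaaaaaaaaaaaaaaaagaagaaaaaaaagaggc
E2F3: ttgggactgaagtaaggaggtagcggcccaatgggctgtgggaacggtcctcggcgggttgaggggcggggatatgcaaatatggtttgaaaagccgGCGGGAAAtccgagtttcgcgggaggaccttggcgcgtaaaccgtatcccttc
RBL1: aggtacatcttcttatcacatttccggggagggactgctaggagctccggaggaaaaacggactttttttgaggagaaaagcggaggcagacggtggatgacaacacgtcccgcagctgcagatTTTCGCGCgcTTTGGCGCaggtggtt
The E2F1 window held TTTGGCGC from 20 to 13 bases before the start and GCGGCAAA from 33 to 26 bases before it. The RBL1 window also held 2 matches, TTTGGCGC at 16 to 9 bases and TTTCGCGC at 26 to 19 bases. E2F2 held TTTGGCGC at 42 to 35 bases, and E2F3 held GCGGGAAA at 53 to 46 bases. Of 35116 windows of the same length, 632 (1.8%) held at least 1 match and 28 (0.0797%) held at least 2. A window was found for 8 members and 4 of them held a match. E2F4 and E2F7 had a window without these letters. The windows of RBL2, chr16:53434321-53434470 and chr16:53435469-53435618, also held no match, and both lie inside the gene. The only window of RB1, without a match, lies at a start inside the gene as well. No window was found for E2F5 and E2F8. E2F3 had a further window, chr6:20403464-20403613, without a match.

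The genes lie at chr20:33675683-33686404 (E2F1), chr1:23506430-23531220 (E2F2), chr6:20401906-20493715 (E2F3), chr16:67192169-67198918 (E2F4), chr12:77021247-77065580 (E2F7), chr11:19224063-19241620 (E2F8), chr13:48303726-48599436 (RB1), chr20:36996349-37095995 (RBL1) and chr16:53433977-53491649 (RBL2) in GENCODE 29 on hg38. E2F5 and RBL2 had fractional expected counts in 36 of 36 libraries, RBL1 in 10 and E2F4 in 5, so these genes share reads with other loci and their levels are less certain. E2F3, E2F5, E2F8, RB1, RBL1 and RBL2 also overlap other annotated genes, and without a stated strand setting reads of the overlap cannot be assigned.

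Library totals ran from 28371127 to 49237322 expected counts. Ribosomal RNA genes took 0.838% to 10.2% of a library. An index of transcript length, the median log2 deviation of 3071 genes with transcripts of at least 5000 bases minus that of 2192 genes under 2000 bases, ran from -0.537 to 0.396 and differed between replicates of the same group, most in MDA-MB-468 and PANC-1. In MDA-MB-468, control replicate 1 (-0.537) and hairpin 2 replicate 3 (-0.399) stood apart, and in PANC-1 control replicate 1 (0.396) and hairpin 1 replicate 1 (-0.422) did so. Of 6 basal breast markers, 5 were at 1 CPM or more in MDA-MB-468 controls, with KRT5 at 1572 CPM and SOX10 at 0.113 CPM. Of the pancreatic duct markers, KRT19 was at 2202 CPM and PDX1 at 8.33 CPM in PANC-1 controls, and of 6 intestinal markers 5 were at 1 CPM or more in WiDr hairpin controls and 6 in WiDr guide controls. PANC-1 controls had 2 of these 6 at 1 CPM or more, and the intestinal marker CDX2 was higher there, at 10.8 CPM, against 2.96 CPM in WiDr hairpin controls and 1.58 CPM in WiDr guide controls. Levels are CPM, read counts scaled to the library total, with TMM factors over all 36 libraries. Adjusted p values are from edgeR's quasi-likelihood test with Benjamini-Hochberg adjustment over all genes tested, and a gene passed under 0.05.

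Before any construct was compared, the lines already differed in which family members they used. MDA-MB-468 controls had the highest E2F1, E2F2, E2F3 and E2F8, and trace RB1. PANC-1 and WiDr controls had RB1 at high levels and more E2F4 and E2F5. In bulk RNA, fewer cells of a kind and less RNA per cell cannot be told apart. RB1, the pocket protein for which the family is named, had 0.365, 0.472 and 0.555 CPM in MDA-MB-468 controls, 88.4, 62.3 and 59.4 CPM in PANC-1 controls and 107, 95.3 and 101 CPM in WiDr hairpin controls. No MDA-MB-468 library of any group came near the other lines, with 0.199 to 0.563 CPM over the 9 libraries, which is 7 to 21 counts a library. The log2 difference was -7.17 ± 0.22 (SE) for MDA-MB-468 against PANC-1 controls and -7.74 against WiDr hairpin controls, and both passed the edgeR test.

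**Figure D1:**
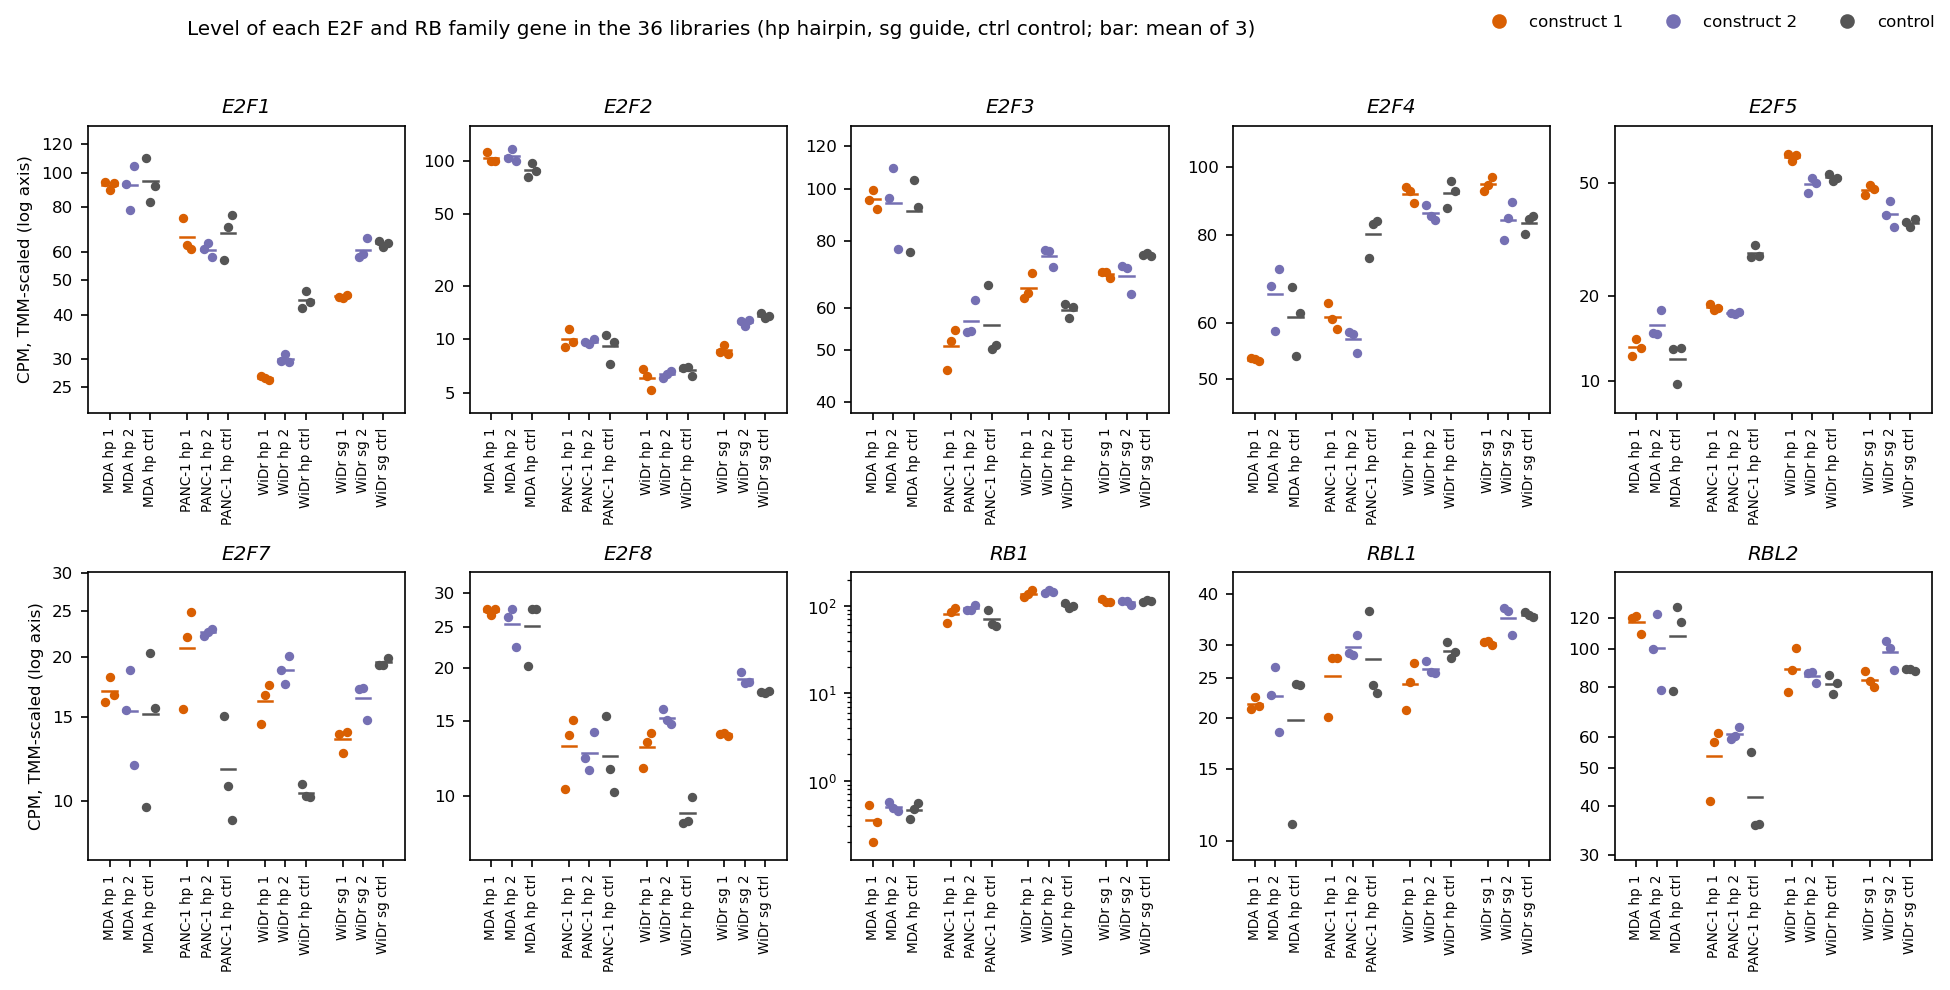
Level of each of the 10 genes in every library (CPM, log scale on the vertical axis), by group, with construct 1 (orange) and construct 2 (purple) left of the control (grey) and a bar at the mean of 3 libraries. hp is hairpin, sg guide and ctrl control, and PANC-1 hp 2 are the libraries labelled hairpin 2: RB1 lies below 1 CPM in all 9 MDA-MB-468 libraries and E2F2 is far higher there than in the other lines.

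E2F2, an activator, had 81.0, 97.0 and 88.0 CPM in MDA-MB-468 controls, 10.5, 7.31 and 9.65 CPM in PANC-1 controls and 6.93, 6.99 and 6.25 CPM in WiDr hairpin controls. The MDA-MB-468 libraries all lay above the others, with log2 differences of 3.34 against PANC-1 and 3.74 against WiDr. E2F1, the best-known activator, averaged 94.7 ± 13.6 CPM in MDA-MB-468 controls, 67.7 ± 9.79 CPM in PANC-1 controls and 43.9 ± 2.44 CPM in WiDr hairpin controls (SD, n = 3 each). E2F5, a repressor and pocket protein partner, ran the other way, with 11.9 ± 1.93, 28.4 ± 1.53 and 52.4 ± 1.66 CPM in the controls of MDA-MB-468, PANC-1 and WiDr hairpins. Each of these orders held without overlap of libraries between MDA-MB-468 and the other lines. In all, 8 of 10 members differed between MDA-MB-468 and PANC-1 controls, where 72.4% of all genes tested passed, and 8 between MDA-MB-468 and WiDr hairpin controls, where 74.7% passed. Between PANC-1 and WiDr hairpin controls 7 passed against 75.1% of all genes. Line, growth and sequencing run cannot be told apart in these differences, and such shares of all genes leave the members' counts near the background.

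Set against each other per kilobase of the longest coding transcript, the members ranked differently in each line. In MDA-MB-468 controls E2F1 was highest at 37.8 CPM per kilobase, followed by E2F4 at 29.2 and RBL2, the pocket protein of resting cells, at 21.9. In PANC-1 controls E2F4 led at 38.4 CPM per kilobase before E2F1 at 27.1 and E2F5 at 15.02. In WiDr hairpin controls E2F4 (43.9), E2F5 (27.7) and RB1 (21.1 CPM per kilobase) led. E2F7 stood at 2.65, 2.03 and 1.82 CPM per kilobase in these 3 controls, among the lowest members of each. Of the summed per-kilobase level of the 7 E2F genes, E2F1 made up 31.7% in MDA-MB-468 controls, 27.1% in PANC-1 controls and 16.3% in WiDr hairpin controls, and E2F5 made up 5.27%, 15.1% and 25.8% in the same order of lines.

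**Figure D2:**
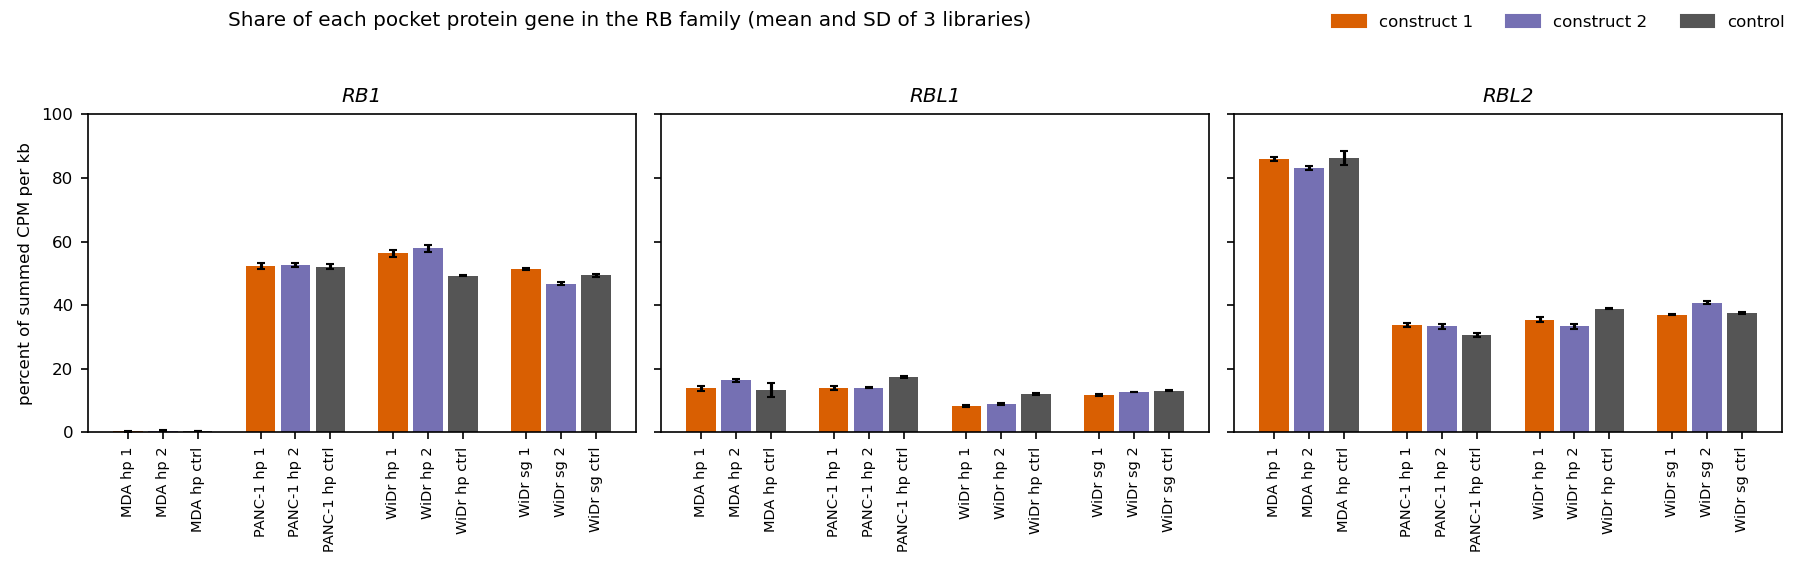
Share of RB1, RBL1 and RBL2 in their summed per-kilobase level (percent, vertical axis) by group, constructs left of the control, as bars at the mean of 3 libraries with their SD (hp hairpin, sg guide, ctrl control; PANC-1 hp 2 are the libraries labelled hairpin 2). RBL2 makes up over 83% in every MDA-MB-468 group, and in WiDr the RB1 share is higher with both hairpins (56.3% and 57.8%) than in the hairpin control (49.2%).

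The make-up of the pocket proteins differed between lines. RBL2 made up 86.4% of the summed per-kilobase level of RB1, RBL1 and RBL2 in MDA-MB-468 controls, against 30.5% in PANC-1 controls and 38.8% in WiDr hairpin controls. RBL2 itself had 78.1, 128 and 117 CPM in MDA-MB-468 controls, 54.7, 35.8 and 35.97 CPM in PANC-1 controls and 86.0, 76.9 and 81.9 CPM in WiDr hairpin controls. The MDA-MB-468 and PANC-1 libraries did not overlap (log2 difference 1.42, passing the edgeR test), while the MDA-MB-468 and WiDr libraries did overlap and the difference of 0.42 did not pass. RBL1, the pocket protein of cycling cells, passed in none of the 3 comparisons between hairpin controls.

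Across all 12 groups the members differed in range. RB1 spanned 414-fold from its lowest group mean (MDA-MB-468 hairpin 1) to its highest (WiDr hairpin 2), E2F2 17.6-fold, E2F5 5.22-fold and E2F1 3.57-fold. E2F4, RBL1 and E2F3 spanned 1.78-fold, 1.81-fold and 1.88-fold. When the 12 groups were put in order of their mean, the libraries of neighbouring groups overlapped in 11 of 11 neighbour pairs for E2F7 and 10 of 11 for RBL1, so their order does not separate neighbours beyond the spread. E2F5 had the most separated steps, with 6 of 11 pairs apart, followed by E2F2 and E2F8 with 5 each and E2F1 with 4. For RB1, 2 steps were apart, for RBL2 2, and for E2F3 and E2F4 3 each.

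WiDr controls of the guide and the hairpin experiment also differed. E2F7 had 19.3, 19.3 and 19.97 CPM in guide controls, against 10.8, 10.2 and 10.2 CPM in hairpin controls. E2F8 had 17.6, 17.5 and 17.7 CPM in guide controls, against 8.61, 8.74 and 9.92 CPM in hairpin controls. Neither gene overlapped between these controls. Of the 10 members 5 passed, with 26.4% of all genes passing, namely E2F1 (log2 difference 0.50), E2F2 (0.98), E2F7 (0.88) and E2F8 (0.93) higher and E2F5 (-0.56) lower in guide controls. Vector, experiment and cell passage cannot be told apart here. Guide controls held 5.24% to 7.25% ribosomal RNA, against 1.59% to 2.71% in hairpin controls, and had a length index of 0.0644 to 0.115, against -0.122 to 0.0371. The part of either in these differences was not tested. E2F7 no longer passed when any 1 of these 6 control libraries was left out, with differences of 0.86 to 0.91.

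In WiDr cells with hairpins, E2F1 was lower while the atypical repressors E2F7 and E2F8, the activator E2F3 and RB1 were higher, with both hairpins. Of the 10 members 7 passed with hairpin 1 and 5 with hairpin 2, where 48% and 44.7% of all genes passed. The 5 members that passed with both in the same direction were 4 higher and 1 lower, while 25.2% of all genes passed so, 12.3% higher and 12.9% lower. The hairpins share their controls, so the comparisons are not independent.

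Among the activators, E2F1 had 26.9, 26.6 and 26.2 CPM with hairpin 1 and 29.7, 31.0 and 29.4 CPM with hairpin 2, against 41.7, 46.5 and 43.5 CPM in hairpin controls. All 6 hairpin libraries lay below all 3 controls. The log2 fold change was -0.72 ± 0.06 with hairpin 1 (SE, edgeR adjusted p = 1.5e-07) and -0.56 ± 0.06 with hairpin 2 (adjusted p = 2.7e-06), or 0.607 and 0.680 of the control level. E2F3, which shares E2F1's activating role, had 62.6, 64.0 and 69.7 CPM with hairpin 1 and 76.8, 76.4 and 71.5 CPM with hairpin 2, against 61.1, 57.3 and 60.2 CPM in controls. Its hairpin libraries all lay above the controls, by 0.14 ± 0.05 (adjusted p = 0.0381) and 0.32 ± 0.05 (adjusted p = 1.6e-04) on the log2 scale. The call with hairpin 1 was lost with a replicate block (adjusted p = 0.0682) and without control replicate 2 (0.11), control replicate 3 (0.15), hairpin 1 replicate 2 (0.16) or 3 (0.11), or hairpin 2 replicate 1 or 2 (0.14 each). It was also lost without a filter on low counts (edgeR adjusted p = 0.0527) and in the fit of all 36 libraries (edgeR adjusted p = 0.393). E2F2 averaged 6.07 ± 0.811 and 6.39 ± 0.279 CPM with the hairpins, against 6.72 ± 0.415 CPM in controls, and did not pass.

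Of the repressors, E2F4, the main E2F of resting cells, averaged 91.7 ± 2.39 CPM with hairpin 1 and 86.0 ± 2.29 CPM with hairpin 2, against 92.0 ± 4.05 CPM in controls, and passed with neither. E2F5 had 63.4, 60.2 and 63.0 CPM with hairpin 1 and 46.1, 52.3 and 50.1 CPM with hairpin 2, against 54.1, 50.8 and 52.3 CPM in controls. The hairpin 1 libraries lay above the controls (log2 fold change 0.25 ± 0.06, edgeR adjusted p = 0.00182), while those of hairpin 2 overlapped them. The hairpins differed from each other in E2F5 by -0.34 on the log2 scale, hairpin 2 against hairpin 1 (edgeR adjusted p = 2.2e-04).

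E2F7, a repressor that acts on E2F1 and other S-phase genes, had 14.5, 16.7 and 17.5 CPM with hairpin 1 and 18.8, 17.6 and 20.1 CPM with hairpin 2, against 10.8, 10.2 and 10.2 CPM in controls. E2F8, its closest relative, had 11.6, 13.4 and 14.1 CPM with hairpin 1 and 16.0, 15.1 and 14.8 CPM with hairpin 2, against 8.61, 8.74 and 9.92 CPM in controls. For both genes every hairpin library lay above every control. E2F7 rose 1.57-fold and 1.79-fold (log2 0.65 ± 0.08 and 0.84 ± 0.08, edgeR adjusted p = 1.3e-05 and 1.0e-06 for hairpins 1 and 2). E2F8 rose 1.44-fold and 1.67-fold (log2 0.53 ± 0.09 and 0.74 ± 0.09, edgeR adjusted p = 1.4e-04 and 5.8e-06).

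RB1 had 127, 136 and 151 CPM with hairpin 1 and 141, 150.3 and 144 CPM with hairpin 2, against 107, 95.3 and 101 CPM in controls. Its hairpin libraries all lay above the controls, and the log2 fold change was 0.46 ± 0.06 and 0.51 ± 0.06 (edgeR adjusted p = 1.0e-05 and 4.0e-06). RBL1 had 20.8, 24.4 and 27.2 CPM with hairpin 1 and 27.4, 25.8 and 25.7 CPM with hairpin 2, against 30.5, 28.01 and 28.8 CPM in controls. Both sets of hairpin libraries lay below the controls, but only hairpin 1 passed (log2 -0.26 ± 0.08, edgeR adjusted p = 0.0129). That call was lost without control replicate 1 (-0.23) and in the fit of all 36 libraries (-0.27, edgeR adjusted p = 0.328). With hairpin 2 the log2 fold change was -0.16 (adjusted p = 0.118), which passed at -0.27 with a correction for transcript length and GC content and at -0.34 with the length index as a covariate. RBL2 passed with neither hairpin. The share of RBL1 in the pocket proteins was 8.28% ± 0.284 and 8.84% ± 0.428 with hairpins 1 and 2, against 11.97% ± 0.179 in controls (SD, n = 3 each).

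The hairpin 2 libraries had more ribosomal RNA (5.38% to 10.2%, against 1.59% to 2.71% in controls and 1.27% to 2.56% with hairpin 1) and a length index of 0.134 to 0.196, against -0.122 to 0.0371 in controls. With the index as a covariate, the log2 fold changes with hairpin 2 were -0.48 for E2F1, 0.70 for E2F7, 0.63 for E2F8 and 0.41 for RB1, and all 4 passed. The part of the ribosomal share in these results was not tested beyond leaving out the ribosomal RNA genes, which changed none of these calls. Between the hairpins 3 members passed, where 42.4% of all genes did. Besides E2F5 these were E2F1 (0.16, edgeR adjusted p = 0.0443) and E2F3 (0.18, adjusted p = 0.0134), hairpin 2 against hairpin 1. Leaving out 1 library lost the E2F1 difference for 6 libraries (0.14 to 0.17: control replicate 3, hairpin 1 replicates 2 and 3, and each hairpin 2 library) and the E2F3 difference for 2 (0.16 without hairpin 1 replicate 2 or hairpin 2 replicate 1). E2F1 also did not pass with DESeq2 (adjusted p = 0.0541), nor with edgeR without a filter (0.0795) or with a replicate block (0.0736). The fit of all 36 libraries lost both E2F1 (edgeR adjusted p = 0.232) and E2F3 (0.216). In that fit 1703 genes were higher and 1507 lower between the hairpins, in place of 2947 and 3124, so calls fell over all genes.

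**Figure D3:**
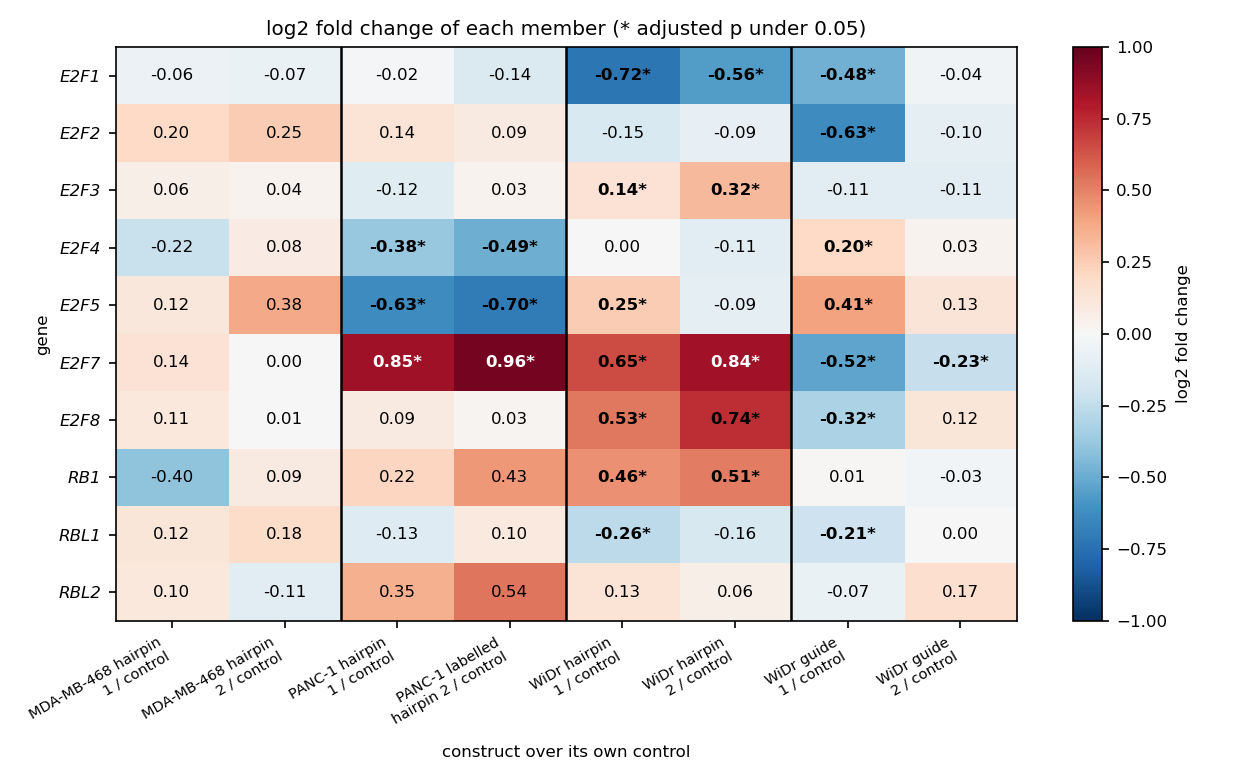
Log2 fold change of each member (rows) with each construct against its own control (columns), printed in each cell, with a mark for calls at an adjusted p under 0.05. E2F1 is called lower with both WiDr hairpins and guide 1, E2F7 is called higher with both hairpins in WiDr and PANC-1 and lower with both WiDr guides, and nothing is called in MDA-MB-468.

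In WiDr cells with guides, guide 1 was set apart from guide 2. With guide 1, E2F1, E2F2, E2F7, E2F8 and RBL1 were lower and E2F4 and E2F5 higher, while with guide 2 only E2F7 passed. These are 7 and 1 of 10 members, where 41.6% and 25.5% of all genes passed. E2F7 alone passed with both guides in the same direction, where 6.26% of all genes fell and 8.48% rose with both, or 14.7% in all.

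E2F1 had 44.9, 44.7 and 45.5 CPM with guide 1 and 57.9, 59.2 and 65.4 CPM with guide 2, against 64.5, 62.0 and 63.5 CPM in guide controls. Guide 1 libraries lay below every control and guide 2 libraries overlapped them. The log2 fold change was -0.48 ± 0.06 with guide 1 (edgeR adjusted p = 3.9e-06) and -0.04 with guide 2. E2F2 had 8.49, 9.27 and 8.26 CPM with guide 1 and 12.6, 11.9 and 12.8 CPM with guide 2, against 14.0, 13.1 and 13.5 CPM in guide controls. Both guides lay below the controls, by -0.63 ± 0.08 with guide 1 (edgeR adjusted p = 8.6e-06) and by -0.10 with guide 2, which did not pass. E2F3 averaged 69.3 ± 0.988 and 68.9 ± 4.46 CPM with guides 1 and 2, against 75.4 ± 0.522 CPM in controls. Its libraries lay below the controls with both guides, but the log2 fold change of -0.11 passed with neither, and it passed with both, at -0.12 and -0.11, after the correction for transcript length and GC content.

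E2F4 and E2F5 moved the other way with guide 1. E2F5 had 45.4, 49.4 and 47.5 CPM with guide 1 and 38.5, 43.4 and 35.1 CPM with guide 2, against 36.5, 34.9 and 37.3 CPM in controls. Guide 1 libraries lay above all controls (log2 0.41 ± 0.07, edgeR adjusted p = 2.0e-04) and guide 2 libraries overlapped them. E2F4 averaged 94.6 ± 2.101 CPM with guide 1 and 84.2 ± 5.24 CPM with guide 2, against 83.4 ± 2.56 CPM in controls, and passed with guide 1 (log2 0.20 ± 0.05, edgeR adjusted p = 0.00773).

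E2F7 had 13.8, 12.6 and 13.9 CPM with guide 1 and 17.2, 17.3 and 14.8 CPM with guide 2, against 19.3, 19.3 and 19.97 CPM in controls. All 6 guide libraries lay below the controls, to 0.695 of the control level with guide 1 (log2 -0.52 ± 0.08, edgeR adjusted p = 4.4e-05) and 0.852 with guide 2 (log2 -0.23 ± 0.08, adjusted p = 0.0364). The guide 2 call was lost without guide control replicate 1, 2 or 3 (-0.24, -0.24 and -0.22), without guide 2 replicate 3 (-0.18), and with the length index as a covariate (-0.12). It was also lost in the fit of all 36 libraries (-0.25, edgeR adjusted p = 0.504). E2F8 had 14.0, 14.1 and 13.8 CPM with guide 1 and 19.6, 18.4 and 18.5 CPM with guide 2, against 17.6, 17.5 and 17.7 CPM in controls. It lay below the controls with guide 1 (log2 -0.32 ± 0.07, edgeR adjusted p = 0.00100) and above them with guide 2, where the log2 fold change of 0.12 did not pass.

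Of the pocket proteins, RBL1 had 30.6, 30.7 and 30.001 CPM with guide 1 and 37.0, 36.4 and 31.8 CPM with guide 2, against 36.1, 35.5 and 35.2 CPM in controls. It passed with guide 1 (log2 -0.21 ± 0.06, edgeR adjusted p = 0.0132), and not without guide control replicate 1 or guide 1 replicate 3 (-0.20 each). In the fit of all 36 libraries RBL1 (edgeR adjusted p = 0.449), E2F4 (0.0722) and E2F8 (0.0687) did not pass with guide 1. Over all genes, 1774 were higher and 1846 lower with guide 1 in that fit, in place of 3133 and 2967. RB1 averaged 113 ± 5.195 and 109.8 ± 7.45 CPM with the guides, against 114 ± 2.01 CPM in controls, and RBL2 83.6 ± 3.82 and 98.1 ± 8.49 CPM, against 88.5 ± 0.586 CPM, and neither passed. Set directly against each other, the guides differed in 8 members, where 34.4% of all genes passed. Guide 2 was above guide 1 in E2F1 (log2 0.44, edgeR adjusted p = 1.3e-05), E2F2 (0.52), E2F7 (0.29), E2F8 (0.44), RBL1 (0.21) and RBL2 (0.23), and below it in E2F4 (-0.16) and E2F5 (-0.28). These differences rest on the titles: with the guides grouped by the genotype field no member passed in any guide comparison, and all 8 differences between guides changed sign. By that field 0 of 15268 genes tested were higher or lower between the guides, against 2542 higher and 2498 lower by the titles. Against controls, 737 genes were higher and 616 lower with guide 1, and 79 and 48 with guide 2. The loss of calls was thus not particular to the members. Without 1 library the calls lost were E2F4 without guide 1 replicate 2 (-0.16) or 3 (-0.15) or guide 2 replicate 1 (-0.11), E2F7 without guide 1 replicate 2 (0.25), and RBL1 without guide 1 replicate 3 (0.20), guide 2 replicate 1 (0.17) or guide 2 replicate 2 (0.18). The fit of all 36 libraries lost the differences between guides in E2F4, E2F7, RBL1 and RBL2. In that fit 1354 genes were higher and 1448 lower between the guides, so calls fell over all genes.

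In PANC-1, E2F4 and E2F5 were lower and E2F7 higher, with hairpin 1 as well as for the libraries labelled hairpin 2. These were 3 of 10 members in each comparison and with both, where 30.2%, 33.4% and 23.8% of all genes passed, so the members' share was near that of all genes. Both comparisons share their controls. Between the libraries labelled hairpin 2 and those of hairpin 1 no member passed with edgeR, where 0.106% of all genes did.

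E2F5 had 18.7, 17.8 and 18.1 CPM with hairpin 1 and 17.4, 17.2 and 17.6 CPM in the libraries labelled hairpin 2, against 27.4, 30.1 and 27.7 CPM in controls. The groups lay far apart, at 0.646 and 0.616 of the control level (log2 -0.63 ± 0.08 and -0.70 ± 0.08, edgeR adjusted p = 3.2e-04 and 1.6e-04). E2F4 had 64.2, 60.7 and 59.0 CPM with hairpin 1 and 58.4, 57.9 and 54.4 CPM in the libraries labelled hairpin 2, against 74.2, 82.9 and 84.0 CPM in controls. It also did not overlap, at 0.768 and 0.712 of the control level (log2 -0.38 ± 0.08 and -0.49 ± 0.08, edgeR adjusted p = 0.00713 and 0.00193). E2F7 had 15.6, 22.1 and 24.9 CPM with hairpin 1 and 22.2, 22.6 and 22.9 CPM in the libraries labelled hairpin 2, against 15.1, 10.8 and 9.11 CPM in controls. It lay above the controls in all 6 libraries, 1.80-fold and 1.95-fold (log2 0.85 ± 0.21 and 0.96 ± 0.21, edgeR adjusted p = 0.0139 and 0.00748). The hairpin 1 call was lost with a replicate block (adjusted p = 0.0533) and without control replicate 2 (0.79), hairpin 1 replicate 2 (0.80) or hairpin 1 replicate 3 (0.69).

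No activator and no pocket protein passed in PANC-1 with edgeR. E2F1 averaged 66.2 ± 7.35 CPM with hairpin 1 and 60.9 ± 2.64 CPM in the libraries labelled hairpin 2, against 67.7 ± 9.79 CPM in controls (SD, n = 3 each). RB1 had 64.2, 84.2 and 94.0 CPM with hairpin 1 and 90.2, 90.3 and 101 CPM in the libraries labelled hairpin 2, against 88.4, 62.3 and 59.4 CPM in controls. RBL2 had 41.3, 58.0 and 61.4 CPM with hairpin 1 and 59.2, 60.3 and 63.3 CPM in the libraries labelled hairpin 2, against 54.7, 35.8 and 35.97 CPM in controls. For both genes hairpin 1 overlapped the controls, and the libraries labelled hairpin 2 lay above them with log2 fold changes of 0.43 for RB1 (edgeR adjusted p = 0.0929) and 0.54 for RBL2 (adjusted p = 0.0595). RBL2 in the libraries labelled hairpin 2 did pass with DESeq2 (log2 fold change 0.53, adjusted p = 0.0365). In the edgeR fit of all 36 libraries both passed there, RB1 with 0.42 (adjusted p = 0.00696) and RBL2 with 0.53 (adjusted p = 0.0102). RBL1 averaged 25.3 ± 4.49 and 29.6 ± 1.94 CPM, against 27.8 ± 7.49 CPM in controls, and E2F8 13.1 ± 2.43 and 12.6 ± 1.36 CPM, against 12.4 ± 2.71 CPM, and neither passed. E2F2 averaged 10.0 ± 1.18 and 9.69 ± 0.370 CPM, against 9.16 ± 1.67 CPM in controls, and E2F3 50.9 ± 4.49 and 56.8 ± 4.46 CPM, against 55.8 ± 8.88 CPM.

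**Figure D4:**
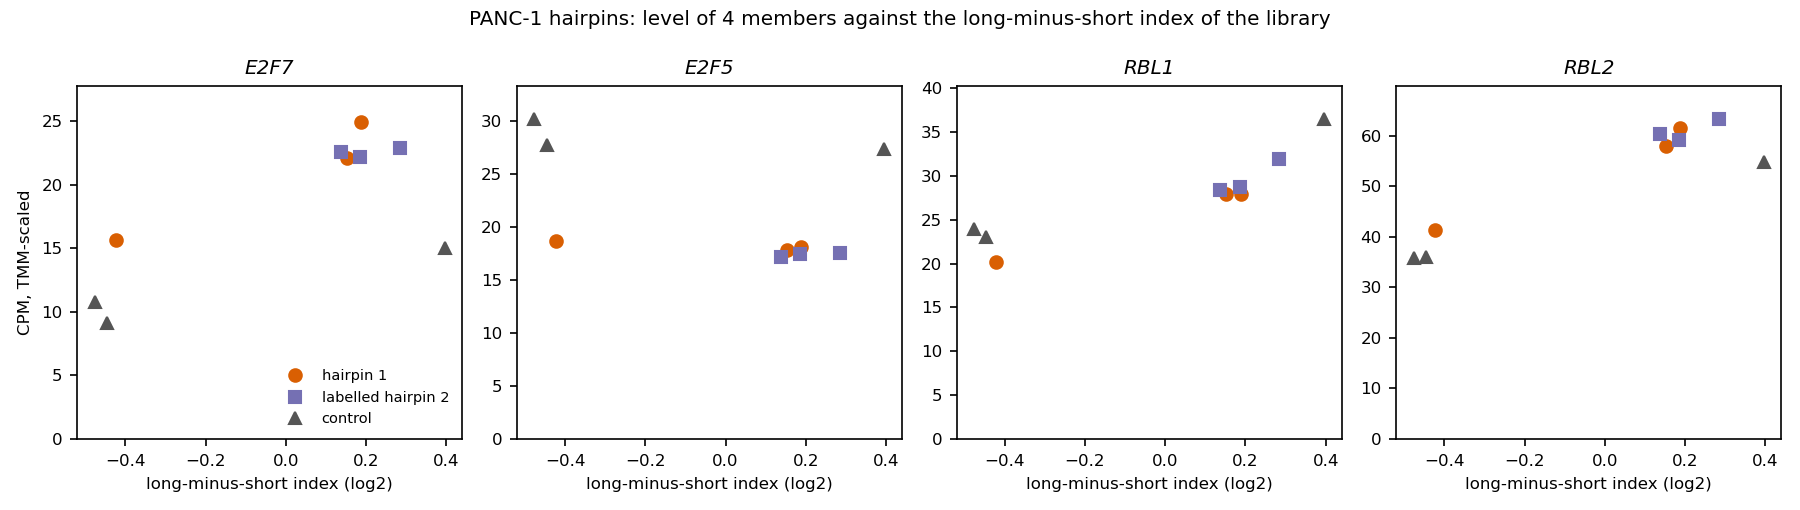
CPM of E2F7, E2F5, RBL1 and RBL2 (vertical axes) against the length index (horizontal axis, log2) in the 9 PANC-1 libraries, with hairpin 1 in orange, the libraries labelled hairpin 2 in purple and controls in grey. Control replicate 1 (index 0.396) has the highest RBL1 and RBL2 of the controls and hairpin 1 replicate 1 (-0.422) the lowest of hairpin 1, while E2F5 is lower in all 6 construct libraries than in any control.

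The length index differed within PANC-1 groups. It was -0.422, 0.152 and 0.188 in hairpin 1 replicates 1 to 3 and 0.186, 0.137 and 0.285 in the libraries labelled hairpin 2, against 0.396, -0.476 and -0.445 in control replicates 1 to 3. Ribosomal RNA also differed, with 0.838% to 2.60% and 1.22% to 1.80% in the hairpin libraries and 4.61% to 9.60% in controls, and its part in the results was not tested beyond leaving those genes out. With the index as a covariate, E2F7 changed by 0.74 and 0.69, E2F5 by -0.62 and -0.67 and E2F4 by -0.35 and -0.42 on the log2 scale for hairpin 1 and the libraries labelled hairpin 2, and all still passed. Under that covariate RBL2 also passed with both (0.25 and 0.27), and so did RBL1 as lower (-0.22 and -0.16). Of 15128 genes tested with the covariate, 4175 were higher and 4593 lower with hairpin 1, and 3804 and 4042 for the libraries labelled hairpin 2. Without control replicate 1 and hairpin 1 replicate 1, 9 and 7 members passed, among them RBL1 as higher (0.25 and 0.34), RB1 (0.55 and 0.63) and RBL2 (0.74 and 0.76). Of 15269 genes tested there, 4662 were higher and 4702 lower with hairpin 1, and 4772 and 4961 for the libraries labelled hairpin 2. The rise in calls was thus not particular to the members. In that subset the constructs had an index of 0.137 to 0.285 and the controls of -0.476 and -0.445, so group and index cannot be told apart. The direction of RBL1 in PANC-1 thus depends on the treatment of the index. Leaving out control replicate 1 alone gave 5 members with hairpin 1 and 6 for the libraries labelled hairpin 2. The number of all genes passing in that fit is not given here, so this rise cannot be read as particular to the members.

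In MDA-MB-468, 0 of 10 members passed with hairpin 1 or hairpin 2 by edgeR, where 2.27% and 3.49% of all genes passed, and 1.31% with both. DESeq2 also called 0 with each. Between hairpin 2 and hairpin 1 no member passed either, where 0.437% of all genes did. E2F2 had 111, 99.2 and 99.6 CPM with hairpin 1 and 104, 117 and 99.7 CPM with hairpin 2, against 81.0, 97.0 and 88.0 CPM in controls. All 6 hairpin libraries lay above the controls, by 0.20 ± 0.10 and 0.25 ± 0.10 on the log2 scale (edgeR adjusted p = 0.450 and 0.255). E2F5 had 12.2, 14.0 and 13.1 CPM with hairpin 1 and 14.8, 14.7 and 17.7 CPM with hairpin 2, against 12.98, 9.69 and 13.1 CPM in controls, and the hairpin 2 libraries lay above them (log2 0.38 ± 0.14, edgeR adjusted p = 0.212).

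None of the other members passed in MDA-MB-468. E2F1 averaged 92.3 ± 2.60 and 92.1 ± 12.98 CPM with hairpins 1 and 2, against 94.7 ± 13.6 CPM in controls, and E2F3 95.5 ± 3.87 and 94.2 ± 16.0 CPM, against 90.8 ± 14.0 CPM. E2F4 averaged 53.3 ± 0.254 and 66.0 ± 6.83 CPM, against 61.2 ± 6.96 CPM in controls, and its hairpin 1 libraries (53.0 to 53.4 CPM) lay just below the lowest control at 53.8 CPM. E2F7 averaged 17.0 ± 1.09 and 15.4 ± 3.46 CPM, against 15.2 ± 5.35 CPM in controls, and E2F8 27.3 ± 0.506 and 25.5 ± 2.67 CPM, against 25.1 ± 4.202 CPM. RBL1 had 21.0, 22.5 and 21.4 CPM with hairpin 1 and 22.7, 26.6 and 18.5 CPM with hairpin 2, against 11.0, 24.1 and 24.0 CPM in controls. The low control is replicate 1, whose length index was -0.537. RBL2 averaged 117 ± 6.605 and 100.4 ± 22.0 CPM, against 108 ± 26.1 CPM in controls. RB1 was at trace levels, with 0.350 ± 0.160 and 0.500 ± 0.0574 CPM, against 0.464 ± 0.0956 CPM. After the correction for transcript length and GC content, E2F2 passed with both hairpins (0.21 and 0.26) and E2F5 with hairpin 2 (0.36). Of 13751 genes tested there, 760 were higher and 618 lower with hairpin 1, and 1014 and 1018 with hairpin 2.

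The effects of the constructs differed between experiments in some members, by an interaction term in fits of 18 libraries on the mean effect of both constructs. The clearest was E2F7, whose mean log2 effect was -0.38 with WiDr guides and 0.74 with WiDr hairpins, a difference of -1.13 ± 0.10 (edgeR adjusted p = 4.3e-09). Its controls themselves differed, at 19.5 CPM for guides and 10.4 CPM for hairpins. The construct groups lay closer, at 13.5 and 16.4 CPM with guides and 16.2 and 18.8 CPM with hairpins. E2F8 controls also differed, at 17.6 and 9.09 CPM. The part of the controls in these differences was not tested. E2F8 (-0.10 and 0.63), RB1 (-0.01 and 0.49) and E2F3 (-0.11 and 0.23) also had lower effects with guides than with hairpins, with differences of -0.74, -0.50 and -0.35. E2F1 was lower by less with guides (-0.26) than with hairpins (-0.64), a difference of 0.38, and E2F4 (0.12 and -0.05) differed by 0.16. These are 6 of 10 members, where 41.6% of all genes passed. PANC-1 differed from WiDr hairpins in 4 members, where 37.2% of all genes passed: E2F1 (0.61), E2F4 (-0.33), E2F5 (-0.69) and E2F8 (-0.53). The mean effect on E2F5 was -0.67 with PANC-1 hairpins and 0.08 with WiDr hairpins, and that on E2F1 was -0.08 and -0.64. MDA-MB-468 differed from WiDr hairpins in 2 members, E2F1 (0.56) and E2F8 (-0.59), where 18.2% of all genes passed. E2F7 (-0.69, edgeR adjusted p = 0.0645) passed as well with a replicate block (-0.66, adjusted p = 0.0414) and with DESeq2 (-0.68, adjusted p = 0.0390). For E2F7 in PANC-1 and WiDr hairpins the mean effects were 0.91 and 0.74, and their difference did not pass, which does not show that they are equal.

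The genes around the E2F and RB families were described by 4 lists, which were chosen with earlier results of these data known. Of all genes, 24.1% and 22.2% were higher and 23.9% and 22.5% lower with WiDr hairpins 1 and 2, 21.4% and 14.1% higher and 20.3% and 11.3% lower with WiDr guides 1 and 2, and 16.2% and 16.7% higher and 14% and 16.7% lower with PANC-1 hairpin 1 and the libraries labelled hairpin 2. In MDA-MB-468 they were 1.24% and 1.69% higher and 1.03% and 1.8% lower. Of 28 G1/S genes that E2F proteins activate, 5 were higher and 15 lower with WiDr hairpin 1, and 5 and 13 with hairpin 2. Their median log2 fold change over both hairpins was -0.17, against -0.00 for all genes. MCM6, a subunit of the replicative helicase, fell by 0.48 and 0.52 on the log2 scale, and GINS2, which joins that helicase, by 0.56 and 0.79, with hairpins 1 and 2. EZH2, a histone methyltransferase, rose by 0.77 and 0.71, and RRM2, a ribonucleotide reductase subunit, by 0.54 and 0.36. With WiDr guide 1, 26 of the 28 were lower and 1 higher (median -0.46), while with guide 2, 5 were lower and 2 higher. MCM2 averaged 134 ± 2.095 CPM with guide 1 and 189 ± 11.1 CPM with guide 2, against 220.4 ± 6.36 CPM in guide controls, and POLE, a DNA polymerase subunit, fell by 0.66 and 0.23. In PANC-1, 4 and 1 were higher and 0 lower, MCM2 among them (0.36 with hairpin 1 and 0.22 for the libraries labelled hairpin 2). In MDA-MB-468 0 of 28 passed with either hairpin.

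Of 20 late cell cycle genes repressed through DREAM, 19 rose with WiDr hairpin 1 and 17 with hairpin 2, and 17 rose with both (median 0.44), where 12.3% of all genes did. AURKA, a mitotic kinase, averaged 60.6 ± 3.73 CPM with hairpin 1 and 58.4 ± 0.565 CPM with hairpin 2, against 31.6 ± 1.13 CPM in controls. TOP2A, the topoisomerase of dividing cells, averaged 301 ± 6.33 and 292 ± 2.21 CPM with hairpins 1 and 2, against 194 ± 11.2 CPM. CCNB2, a B-type cyclin, rose by 0.79 and 0.56 and CENPF, a centromere protein, by 0.62 and 0.67. With WiDr guide 1, 16 were lower and 1 higher (median -0.33), and with guide 2, 8 were higher and 0 lower (median 0.15). UBE2C, a mitotic ubiquitin-conjugating enzyme, was the 1 gene higher with both guides (0.18 and 0.29). In PANC-1, 4 were lower with hairpin 1 and 14 for the libraries labelled hairpin 2, with none higher. AURKA there averaged 168 ± 5.499 CPM with hairpin 1 and 128 ± 2.80 CPM in the libraries labelled hairpin 2, against 251 ± 24.5 CPM in controls, and CCNB1 fell by 0.56 and 0.97. In MDA-MB-468 1 rose with hairpin 1 and 0 passed with hairpin 2.

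**Figure D5:**
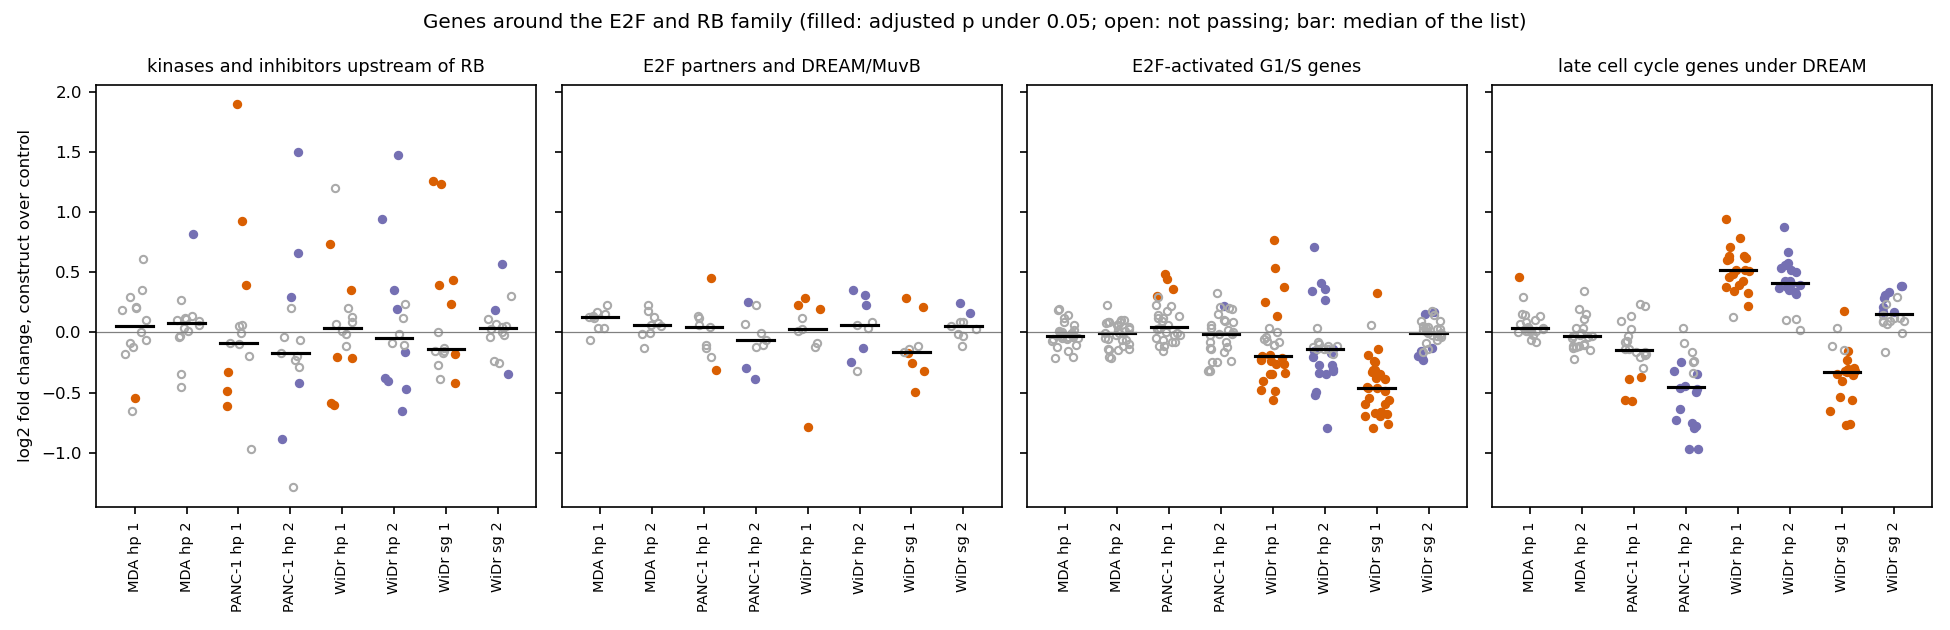
Log2 fold change of every tested gene of the 4 lists (vertical axis) with each construct against its control, filled where the gene passed and open where it did not, with a bar at the median. The late cell cycle genes lie above 0 with both WiDr hairpins and mostly below 0 with WiDr guide 1 and in the PANC-1 libraries labelled hairpin 2 (hp 2).

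The third list holds 15 cyclins, kinases and kinase inhibitors that act on the pocket proteins. CDKN1A, a general inhibitor of cyclin-dependent kinases, averaged 20.8 ± 0.903 CPM with WiDr hairpin 1 and 24.3 ± 1.07 CPM with hairpin 2, against 12.6 ± 1.51 CPM in hairpin controls. It averaged 20.2 ± 0.292 CPM with WiDr guide 1 and 12.6 ± 0.578 CPM with guide 2, against 8.64 ± 0.425 CPM in guide controls. In PANC-1 it was lower, with 64.1 ± 1.52 CPM with hairpin 1 and 67.0 ± 1.35 CPM in the libraries labelled hairpin 2, against 90.2 ± 7.53 CPM in controls. Each of these 6 changes passed. CCND1, a D-type cyclin that starts RB1 phosphorylation, averaged 127 ± 8.66 and 124 ± 1.74 CPM with WiDr hairpins 1 and 2, against 193 ± 2.42 CPM in controls, and CCND3 fell by 0.58 and 0.47 and CCNE1, an E-type cyclin, by 0.22 and 0.38. In PANC-1 the inhibitor genes CDKN1C (1.90 and 1.502) and CDKN2D (0.93 and 0.66) rose and CDKN2C (-0.61 and -0.89) fell. Of the 13 or 14 genes of this list tested, 2 were higher and 4 lower with WiDr hairpin 1, 4 and 5 with hairpin 2, 5 and 2 with guide 1, 2 and 1 with guide 2, 3 and 3 with PANC-1 hairpin 1 and 3 and 2 for the libraries labelled hairpin 2, and 1 passed with each MDA-MB-468 hairpin.

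Of 9 E2F partners and DREAM or MuvB components, TFDP2, a DP partner of E2F proteins, rose with both WiDr hairpins (0.23 and 0.31), and LIN37, a MuvB subunit, with both WiDr guides (0.28 and 0.24). In PANC-1, MYBL2, which binds MuvB in S phase, averaged 206 ± 4.39 CPM with hairpin 1 and 179 ± 5.75 CPM in the libraries labelled hairpin 2, against 151 ± 4.86 CPM in controls, and LIN9, a MuvB subunit, fell by 0.31 and 0.39. The list had 3 higher and 1 lower gene with WiDr hairpin 1, 3 and 2 with hairpin 2, 2 and 4 with guide 1, 2 and 0 with guide 2, 1 and 1 with PANC-1 hairpin 1, 1 and 2 in the libraries labelled hairpin 2, and 0 in MDA-MB-468.

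The genes whose levels went most with each member were found by Pearson's r of log2(CPM + 1) over the 36 libraries after each experiment's mean was subtracted, and the libraries share depth, length index and group effects. For E2F2 these were ORC1 (r = 0.866), a subunit of the origin recognition complex, and DNMT1 (0.811), the maintenance DNA methyltransferase. For E2F8 they were SMC2 (0.886) and NCAPG (0.878), both condensin subunits, and CENPI (0.877), a centromere protein. For E2F7 they were FMNL2 (0.945), ANLN (0.943), an actin-binding protein of the cleavage furrow, and MSN (0.925). The highest r was 0.903 for E2F1 with ECHDC2, 0.944 for E2F3 with SF3B1, 0.918 for E2F4 with RABEPK and 0.896 for E2F5 with PNO1. It was 0.882 for RB1 with PDE10A, 0.929 for RBL1 with EFCAB14 and 0.959 for RBL2 with EML4.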

How the data were processed

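Poly-A RNA of 36 libraries in 12 groups of 3 was measured. Per the submitters' processing notes, the authors used Bowtie2 2.1.0, RSEM 1.2.15 and hg38. The deposited table gives expected counts by gene symbol. The gene that the constructs address is not reported here. Which annotation and strand setting were used is not given in the sources used here. Expected counts were rounded to whole numbers. Symbols were matched to GENCODE 29 (23899, or 90.3%). 2349 symbols had no count in any library.

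Each experiment of 9 libraries was fitted with edgeR 4.0.16 (limma 3.58.1, R 4.3.3): filterByExpr, TMM, robust quasi-likelihood F test, Benjamini-Hochberg adjustment over all genes. The 12 control libraries were fitted together, and differences of effects in fits of 18 libraries. A standard error is the log2 fold change divided by the square root of F. P values measure the spread between replicate libraries, estimated for each gene over all groups of a fit with information shared between genes. Chi-square per degree of freedom between replicates was 3.39 to 177, so none repeat 1 library. The fits were tested on simulated data.

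The members and lists were chosen with earlier results of these data known. Named genes were all members, up to 4 genes per list and experiment called with both constructs in 1 direction and with the largest mean change, and the 3 genes most like each member. Alternatives were DESeq2 1.42.0, its size factors, no filter, ribosomal RNA genes left out, a replicate block, all libraries in 1 fit, guides by the genotype field and leaving out each replicate. The corrections for transcript length and GC content, the length index as covariate and leaving out 2 libraries were chosen after seeing the data.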

Additional observations from a re-analysis of the deposited data

Results flagged for a closer look

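In 12 cases the mean effect of both constructs differed between experiments by an edgeR interaction test. The effect with WiDr guides minus that with WiDr hairpins was 0.38 for E2F1 (adjusted p = 1.0e-04), -0.35 for E2F3 (adjusted p = 1.3e-04), 0.16 for E2F4 (adjusted p = 0.0419), -1.13 for E2F7 (adjusted p = 4.3e-09), -0.74 for E2F8 (adjusted p = 6.6e-07) and -0.50 for RB1 (adjusted p = 6.2e-06) on the log2 scale. The effect in PANC-1 minus that in WiDr with hairpins was 0.61 for E2F1 (edgeR adjusted p = 3.3e-04), -0.33 for E2F4 (adjusted p = 0.00204), -0.69 for E2F5 (adjusted p = 1.7e-06) and -0.53 for E2F8 (adjusted p = 0.0418). The effect in MDA-MB-468 minus that in WiDr with hairpins was 0.56 for E2F1 (edgeR adjusted p = 0.00340) and -0.59 for E2F8 (adjusted p = 0.00798). All libraries of E2F7 lay below their controls with guides and above them with hairpins in WiDr, where the controls themselves averaged 19.5 CPM (guides) and 10.4 CPM (hairpins).

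The E2F4 difference between guides and hairpins was not called with DESeq2 (0.15), with its size factors (0.15), without a filter (0.17) or with the correction for transcript length and GC content (0.06), nor without 13 of the 18 libraries, 1 at a time (0.14 to 0.18). By the genotype field it was 0.21 and not called, and that of E2F1 was 0.30 and not called. The E2F8 difference of PANC-1 from WiDr was not called with a replicate block (-0.53) or without 8 of the 18 libraries, 1 at a time, and was -0.31 without PANC-1 control replicate 1. WiDr guides and hairpins differ in vector and experiment, and lines differ in libraries and length index, so these cannot be told apart from the effect.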

How the results depend on the processing

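Of 77 member results that passed, 74 still did with DESeq2, 75 with its size factors, 73 without a filter, 76 without ribosomal RNA genes, 25 of 37 with all 36 libraries in 1 fit, 48 of 49 with the length and GC correction, 35 of 37 with the length index as a covariate, 6 of 6 without 2 libraries that stand apart and 4 of 22 with guides by the genotype field. Leaving out 1 library lost 17 of them at least once and turned none round. Of 113 that did not pass, 45 changed sign at least once when 1 library was left out, 22 of 83 with the index covariate, 14 of 101 with the length and GC correction and 13 of 54 without 2 libraries. The cause was not tested.

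Members passing by comparison changed as follows. For MDA-MB-468 hairpin 1 (0) there were 1 with the length and GC correction and 2 with the index covariate, and for hairpin 2 (0) there were 1 in the fit of all libraries, 2 and 3. All genes passing with hairpin 1 were 760 higher and 618 lower with the correction, and 1559 and 1334 with the covariate. With hairpin 2 they were 1014 and 1018, and 2150 and 1953, and in the fit of all libraries 694 and 574, so calls rose over all genes. For hairpin 2 against hairpin 1 (0) there were 1 in the fit of all libraries, 1 and 2, and for both hairpins (0) there were 1 and 1. For PANC-1 hairpin 1 (3) there were 5 with the correction, 6 with the covariate, 9 without 2 libraries and 2 to 5 leaving out 1. For the libraries labelled hairpin 2 (3) there were 5 in the fit of all libraries, 5, 6, 7 and 3 to 6, and for both (3) there were 5, 5, 7 and 2 to 5. All genes passing with PANC-1 hairpin 1 were 3453 higher and 2855 lower with the correction, and 4662 and 4702 without 2 libraries. For the libraries labelled hairpin 2 they were 3707 and 3207, and 4772 and 4961, and in the fit of all libraries 3200 and 3854. For WiDr guide 1 (7) there were 4 in the fit of all libraries and 0 by the genotype field. For guide 2 (1) there were 0 in the fit of all libraries, 0 by the genotype field, 3 with the correction and 0 to 2 leaving out 1, with 0 without any guide control. For both guides (1) there were 0 in the fit of all libraries, 0 by the genotype field, 2 with the correction, 0 with the covariate and 0 to 1 leaving out 1. For guide 2 against guide 1 (8) there were 4 in the fit of all libraries and 0 by the genotype field, where the differences turned round to -0.27 for E2F1, -0.42 for E2F2, 0.13 for E2F4, 0.16 for E2F5, -0.13 for E2F7, -0.30 for E2F8, -0.16 for RBL1 and -0.22 for RBL2. By that field 0 of all 15268 genes tested passed between the guides. For WiDr hairpin 2 against hairpin 1 (3) there were 1 in the fit of all libraries and 1 to 5 leaving out 1. In the fit of all libraries, 1774 genes were higher and 1846 lower with guide 1, and 535 and 726 with guide 2. Between the guides they were 1354 and 1448, and between the WiDr hairpins 1703 and 1507. In the main fits they were 3133 and 2967, 2071 and 1660, 2542 and 2498, and 2947 and 3124 in that order. Calls thus fell over all genes. For PANC-1 against WiDr controls (7) there were 4 to 7 leaving out 1, with E2F8 at 0.19, E2F2 at 0.27 and E2F4 at -0.21 without PANC-1 control replicate 1. With the correction, PANC-1 differed from WiDr hairpins in 7 members in place of 4, and MDA-MB-468 in 4 in place of 2. Over all genes with the correction, the effect was higher for 4085 and lower for 3018 in PANC-1, in place of 3403 and 2641. For MDA-MB-468 they were 2577 and 2322, in place of 1479 and 1431, so calls rose over all genes.

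E2F7 in MDA-MB-468 against WiDr controls (0.57, adjusted p = 0.0494) was not called with DESeq2 (0.54), its size factors (0.54), no filter (0.55), ribosomal RNA genes left out (0.55) or without 9 of the 12 control libraries, 1 at a time, with 0.30 without MDA-MB-468 control replicate 2. E2F8 in PANC-1 against WiDr controls was likewise lost without 9. Same-numbered libraries were not taken as pairs, since in each experiment some same-number residual correlations were negative (lowest -0.46, -0.92, -0.29 and -0.28 in MDA-MB-468, PANC-1, WiDr hairpins and WiDr guides). There 4, 1, 0 and 8 of 9 libraries went best with their own number, which for the guides (highest 0.51, against 0.22 between other numbers) is a hint from the data, not the design. With a replicate block, guide 2 had 2 members in place of 1 (RBL2, 0.16), MDA-MB-468 minus WiDr hairpins gained E2F7 (-0.66), and guide 2 had 2487 genes higher and 2061 lower in place of 2071 and 1660. The block lost 4 calls of 49, E2F7 with PANC-1 hairpin 1, E2F3 with WiDr hairpin 1, E2F1 between WiDr hairpins and the E2F8 difference of PANC-1 from WiDr, and changed no other passing call. No paired analysis was possible for control against control because each experiment gives 1 group. RB1 in MDA-MB-468 rests on 7 to 21 counts a library, where changes could not be measured well.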
